A study of Mus musculus with 8 samples.

Results

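Expression of 4 sensors of cytosolic nucleic acid and of 1 adaptor was followed through the colonic lamina propria cells of CD98hcΔCX3CR1 mice. The sensors were Ddx58 (RIG-I), Ifih1 (MDA5), Dhx58 (LGP2) and Zbp1, and the adaptor was Mavs. They were picked by name and known function, but with earlier results of these data known. This gave 5 of the 16889 genes in the count table, and every one of them was measured and passed the filter on low counts. The cell types in which they are described came from measured values, since cells were clustered on their UMI counts and each cluster was named from its marker genes. Mavs is a signalling protein of the mitochondrial surface rather than a sensor, so the group is best read as 4 sensors with the adaptor of RIG-I and MDA5.

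The study asked what the loss of CD98hc, the heavy chain of an amino acid transporter encoded by Slc3a2, does to colonic monocytes and macrophages. All 8 mice were female littermates, 6 to 12 weeks old, that carried a floxed CD98hc gene together with Cx3cr1 CreER-YFP, a Cre recombinase that is expressed under the Cx3cr1 promoter and becomes active in the presence of tamoxifen. The 4 control mice (replicates 1 to 4) received corn oil and the 4 cKO mice (replicates 5 to 8) received tamoxifen in corn oil, given as 100 µl of 20 mg/ml per the labels and as 75 mg/kg per the methods, on 5 consecutive days with cells taken on day 7. CD11b+ cells with CCR2 or CD64 on their surface were sorted, loaded as 1 well per mouse and counted with a 3′ single-cell kit. Tamoxifen was given to the cKO mice only, so its own effect and that of the deletion cannot be told apart, and the deletion in each kind of cell was not measured here.

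RIG-I and MDA5 are helicases that recognise foreign or misplaced double-stranded RNA in the cytoplasm, RIG-I through the ends of the strand and MDA5 along long duplexes. Both pass the signal through caspase recruitment domains to MAVS, which recruits kinases that switch on IRF3, IRF7 and NF-κB and with them the type I interferon genes. LGP2 binds RNA but lacks the signalling domains and tunes the other sensors, while ZBP1 binds nucleic acids in the Z conformation and can start cell death through RIPK3 and MLKL. Genes of most of these sensors are themselves targets of interferon, whereas Mavs is held to be expressed constitutively. Monocytes and macrophages of the gut carry this machinery as part of their surveillance of viruses and bacteria.

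The genes lie on different chromosomes or far apart. In GRCm38 with the GENCODE vM21 annotation, Ddx58 (ENSMUSG00000040296) spans chr4:40203773-40239828 on the minus strand and Ifih1 (ENSMUSG00000026896) spans chr2:62595798-62646255 on the minus strand. Zbp1 (ENSMUSG00000027514, chr2:173206612-173218923, minus strand) and Mavs (ENSMUSG00000037523, chr2:131234063-131248025, plus strand) share that chromosome. Dhx58 (ENSMUSG00000017830) spans chr11:100694884-100704271 on the minus strand and is overlapped by the antisense gene Dhx58os on the opposite strand, from which Cell Ranger classes reads as antisense and apart from sense reads.

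Sequence around the start site is shown for Ddx58, Ifih1 and Mavs, the genes with a matched sequence. It was searched for the stimulated response element, which interferon-inducible genes often carry. The sequences are those of RefSeq for GRCm38.p6, in which 3 of the 5 genes were matched, all but Dhx58 and Zbp1. The core of the element, GAAA followed by any 2 bases and again GAAA, was searched on both strands in the 300 bases from 250 before to 50 after each start, and 1131 of 32851 promoters (3.44%) held it. Ddx58 (chr4:40239796-40239895, minus strand, bases -70 to 30 from the start) held 1 match, in capitals and read on the opposite strand at bases 3 to 12. Ifih1 (chr2:62646214-62646243, minus strand, bases 13 to 42) held 1 match, in capitals and on the strand of the gene at bases 33 to 42. Mavs (chr2:131233993-131234092, plus strand, bases -70 to 30) held none in its window of 300 bases. A match is a run of letters and not a shown site of binding. Dhx58 and Zbp1 could not be searched, and whether matches go with a change in cKO mice was not tested.
Ddx58: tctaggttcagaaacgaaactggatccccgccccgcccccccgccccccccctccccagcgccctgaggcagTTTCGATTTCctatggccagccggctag
Ifih1: aaagtctggagaagagaatcGAAACAGAAA
Mavs: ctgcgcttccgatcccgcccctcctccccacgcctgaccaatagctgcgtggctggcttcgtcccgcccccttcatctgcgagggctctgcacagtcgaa

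After filtering, 1863 control cells and 1350 cKO cells remained of 5947 barcodes, with 589135 to 3762314 UMIs per control mouse and 497531 to 2486236 per cKO mouse. Control replicate 3 (85 cells) and cKO replicate 5 (83 cells) were far smaller than the rest, and 24 of the 58 doublet calls in cKO cells fell in replicate 5, against 15 calls in all control cells. Of the cell codes in the table, 25 occurred in more than 1 well, 8 of them among kept cells, but these codes run in sequence over the wells and need not be the original barcodes. Slc3a2 stood at 337 ± 117 CPM (UMIs scaled to a common total per mouse; SD, n = 4) in control and 320 ± 27.9 CPM in cKO mice, but a 3′ count reads a part of the transcript away from the excised exon and does not check the deletion. Beside monocyte-like and macrophage-like clusters, the sort held dendritic cell-like, lymphoid cell-like and stromal cell-like ones, so the label of monocytes and macrophages did not cover all cells. None of the listed markers in the table was at 0 in the series.

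Summed over all cells of a mouse, the 4 sensors were higher in cKO than in control mice and Mavs was not detectably different. Zbp1 rose most, to 3.64 times the control mean, followed by Ddx58 (3.07 times), Dhx58 (2.37 times) and Ifih1 (2.0 times), while the ratio for Mavs was 0.966. Levels in CPM are UMIs scaled to the total of the mouse, which compares a gene between mice and not genes with each other.

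Ddx58, the RIG-I gene, stood at 9.57, 9.48, 15.3 and 14.5 CPM in control replicates 1 to 4 and at 40.2, 26, 48.3 and 35.4 CPM in cKO replicates 5 to 8. Every cKO mouse lay above every control mouse. Its log2 fold change was 1.80 (SE 0.255, adjusted p = 0.003265 by the quasi-likelihood test of edgeR, adjusted after Benjamini and Hochberg), on 9 to 120 UMIs per mouse. Each SE of a fold change was derived as its absolute value over the square root of the F statistic of that test.

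Ifih1, the MDA5 gene, stood at 22.3, 13.8, 40.7 and 22.6 CPM in control replicates 1 to 4 and at 42.2, 40.5, 64.8 and 51.2 CPM in cKO replicates 5 to 8. The groups overlapped, since control replicate 3, with 24 UMIs of Ifih1 in 85 cells, lay just above cKO replicate 6. The log2 fold change was 1.27 (SE 0.288, adjusted p = 0.0304 by the same edgeR test). This call was lost when any of control replicate 1, control replicate 2, cKO replicate 7 or cKO replicate 8 was left out, with adjusted p of 0.09614, 0.1076, 0.1071 and 0.071 and log2 fold changes of 1.26, 1.03, 1.09 and 1.27.

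Dhx58, the LGP2 gene, stood at 37.7, 27.2, 23.8 and 35.7 CPM in control replicates 1 to 4 and at 66.3, 56.8, 93.7 and 77.4 CPM in cKO replicates 5 to 8. The groups did not overlap, and replicate 7 was again the highest. The log2 fold change was 1.32 (SE 0.206, adjusted p = 0.005266 by the same edgeR test).

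Zbp1, the sensor of Z-form nucleic acid, stood at 50.5, 34.9, 62.8 and 76.1 CPM in control replicates 1 to 4 and at 157, 171, 284 and 203 CPM in cKO replicates 5 to 8. The lowest cKO mouse was above the highest control mouse, and with 37 to 707 UMIs per mouse it was the most deeply counted of the genes. Its log2 fold change was 1.995 (SE 0.265, adjusted p = 0.002257 by the same edgeR test).

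Mavs, the adaptor, stood at 16.5, 15.0, 13.6 and 18.9 CPM in control replicates 1 to 4 and at 18.1, 14.5, 12.5 and 16.6 CPM in cKO replicates 5 to 8. The groups overlapped over almost their whole range. The log2 fold change was -0.02 (SE 0.202, adjusted p = 0.9767 by the same edgeR test), on 8 to 62 UMIs per mouse, and ran from -0.07 to 0.07 when 1 mouse was left out.

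**Figure D1:**
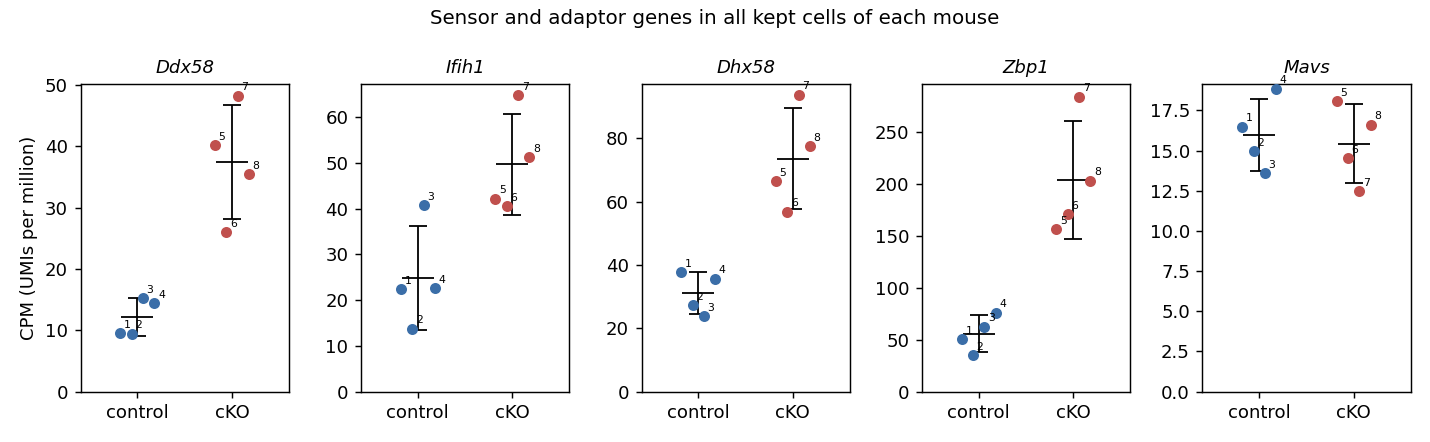
Level of each gene (CPM, linear axis from 0) in all kept cells of each mouse, with 1 point per mouse numbered by replicate, the mean as a long line and the SD as error bars. The cKO mice lie above the control mice for Ddx58, Dhx58 and Zbp1, control replicate 3 overlaps the cKO mice for Ifih1, and the groups overlap for Mavs.

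Of the 5 genes, 4 passed the threshold and all 4 in the direction of cKO. Over all 11387 genes tested, 4.48% passed in either direction and 2.99% did so as higher in cKO. Non-overlapping groups with every cKO mouse above every control mouse were found for 3 of the 5 genes, against 4% of all genes. By the size of p, Zbp1 ranked 32, Ddx58 41, Dhx58 67 and Ifih1 306 among the 11387 genes, and Mavs ranked 10719. The 5 genes were chosen with earlier results known, so these contrasts with all genes are a description and no test of enrichment. Without the mice of fewest cells, control replicate 3 and cKO replicate 5, the log2 fold changes were 1.87 for Ddx58, 1.56 for Ifih1, 1.32 for Dhx58 and 2.17 for Zbp1, each with an adjusted p of at most 0.01891 by edgeR's quasi-likelihood test.

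The makeup of the cells changed along with these sums. The monocyte-like cluster held 9.64% ± 4.29 of control and 31.9% ± 10.1 of cKO cells (SD, n = 4 mice each, p = 0.0286 by a two-sided exact permutation test, the smallest that 4 against 4 mice can give). The dendritic cell-like cluster went from 23.6% ± 3.90 to 7.12% ± 2.11 and the stromal cell-like cluster from 4.32% ± 1.99 to 1.34% ± 0.778, each with the same exact p of 0.0286. In CPM summed over whole marker lists, the 8 monocyte markers ranged from 1600 to 3270 in control and from 6990 to 10200 in cKO mice. The 9 dendritic cell markers ranged from 640.0 to 697 against 152 to 277, and the 6 neutrophil markers from 24.2 to 49.5 against 53.8 to 86.9. In sums over all cells, more cells of a type and more RNA per cell cannot be told apart, and the part of the makeup in the changes was not tested. Without the dendritic, lymphoid and stromal cell-like clusters, the log2 fold changes were 1.61 for Ddx58, 1.04 for Ifih1, 1.21 for Dhx58 and 1.78 for Zbp1, each still with an adjusted p of at most 0.02449 by edgeR, and -0.26 for Mavs.

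Counted by cells rather than by UMIs, more cKO cells held a transcript of each sensor. Each cell was thinned to 1000 UMIs, which kept 1764 control and 1271 cKO cells and left out 99 and 79 shallower ones. Zbp1 was found in 4.57%, 4.30%, 5.13% and 9.63% of cells in control replicates 1 to 4 and in 14.1%, 14.5%, 22.7% and 18% in cKO replicates 5 to 8. All cKO mice were higher, although control replicate 4 stood apart from the other control mice. The mean share of cells with a UMI went from 5.91% ± 2.51 in control to 17.3% ± 3.99 in cKO (SD over 4 mice each, exact permutation p = 0.0286). How many of all genes separated the mice by share of cells was not counted, here or for the genes below. Shares over all cells also depend on the makeup of the cells, and its part was not tested.

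The shares of the RNA sensors followed the same direction at lower values. Ddx58 was found in 1.43% ± 0.851 of control and 4.07% ± 1.21 of cKO cells, and Dhx58 in 2.68% ± 1.97 and 7.69% ± 1.43 (SD, n = 4 mice each, exact permutation p = 0.0286 for both). Without cKO replicate 7 the difference for Ddx58 was 2.05 points and no longer passed (exact permutation p = 0.0571). Ifih1 was found in 1.5% ± 0.287 and 5.9% ± 1.42 (exact permutation p = 0.0286), but this result did not hold at other depths. Thinning to 500 or 2000 UMIs gave an exact permutation p of 0.314 and 0.171, and no thinning gave 0.0857. Each depth of thinning was 1 random draw, so the depth and the draw cannot be told apart. The share expected over all possible draws of 1000 UMIs, computed after the data were seen, for Ifih1 was 2.65% ± 0.950 in control and 5.40% ± 0.805 in cKO (exact permutation p = 0.0286). The expected difference was 2.75 points, beside 4.40 points in the draw used. Without thinning, the shares were 5.45% and 16.5% for Ddx58, 11.5% and 18.6% for Ifih1, 15.2% and 27.5% for Dhx58 and 20.6% and 46.5% for Zbp1.

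For Mavs the share of cells did not pass the test. It was 2.16% ± 0.574 in control and 1.25% ± 0.215 in cKO after thinning (SD over 4 mice each, exact permutation p = 0.0571), and the expected share over all draws was 1.57% ± 0.387 and 1.24% ± 0.204 (exact p = 0.229). Without control replicate 1, the lowest control mouse, the difference was -1.19 points (exact permutation p = 0.0286). No cell type of this tissue is known to lack these genes, so no level of free RNA could be read from one. In the stromal cell-like cluster, with a median of 4824 UMIs per control cell, 1 of 65 thinned control cells held a UMI of Zbp1 (1.54%, 95% Wilson interval 0.272% to 8.21%), against 28 of 203 in the monocyte-like cluster (13.8%, 9.72% to 19.2%) with a median of 3972 UMIs. Such intervals cover counting error only.

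**Figure D2:**
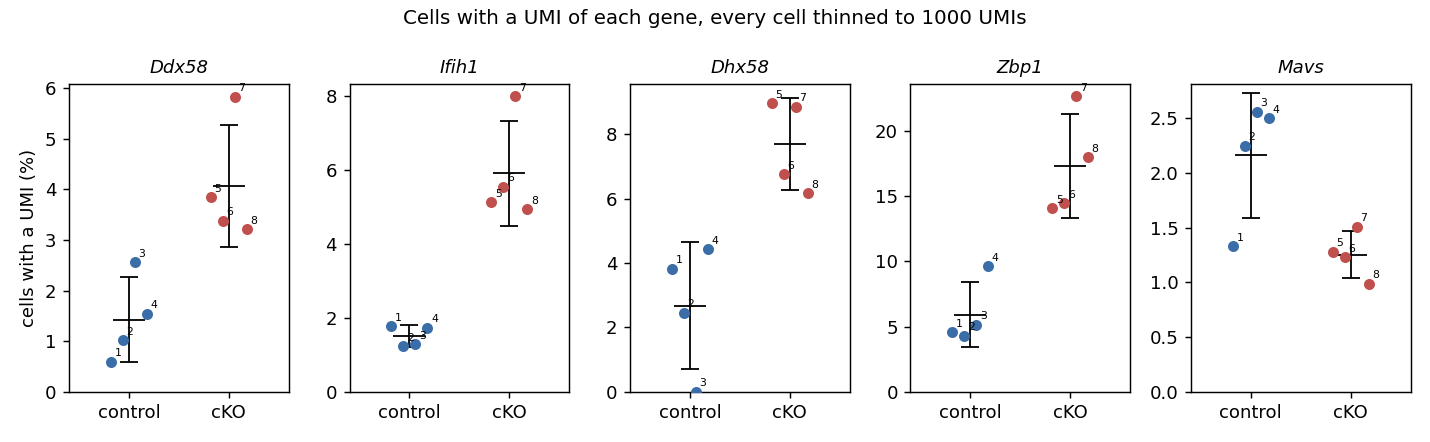
Share of cells with at least 1 UMI of each gene (%, linear axis from 0) after every cell was thinned to 1000 UMIs, with 1 point per mouse numbered by replicate, the mean as a long line and the SD as error bars. The cKO mice lie above the control mice for Ddx58, Ifih1, Dhx58 and Zbp1, and control replicate 4 stands apart for Zbp1 at 9.63%. How many of all genes separated the mice by share of cells was not counted.

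Cells fell into 9 clusters, built without the genes described here and without the genes of the pathway lists. Also left out were Slc3a2, the YFP reporter and the genes that the study listed as changed between cKO and control cells within its clusters. Cluster 1 was monocyte-like (683 cells, led by Dmkn, Chil3 and Ly6c2), clusters 2 (530 cells, C1qb, Gdf15, Cd72) and 5 (326 cells, Fcrls, Pf4, Apoe) were macrophage-like, cluster 3 was dendritic cell-like (512 cells, Cd209a, Xcr1, Flt3) and cluster 8 lymphoid cell-like (185 cells, Jchain, Cd79a, Cd3g). Cluster 6 (268 cells) was macrophage-like by Pf4 and Fcrls but held a median of 1169 UMIs per cell. Clusters 4 (429 cells, led by Ccl24, Arg1 and Saa3) and 7 (194 cells, Ier5 and Cebpb) stayed unnamed, and cluster 9 was stromal cell-like (86 cells, Dcn, Col3a1). The levels that follow describe these clusters and were not tested between them, since the same cells define them.

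Among clusters with at least 2 control mice of 20 cells, Zbp1 had its highest control mean in the monocyte-like cluster and its lowest in the macrophage-like cluster 5. The mean was 144 ± 20.1 CPM in cluster 1 (SD, n = 3 mice with at least 20 cells), 120 ± 89.3 in cluster 6, 106 ± 30.6 in cluster 4 (n = 2), 86.0 ± 40.7 in cluster 8, 84.6 ± 67.9 in cluster 7, 53.3 ± 12.9 in cluster 2, 35.1 ± 12.5 in cluster 3 (n = 4) and 29.6 ± 1.95 in cluster 5. Neighbours in this order overlapped between mice at every step, but the monocyte-like cluster, at 130.2 to 167 CPM, lay wholly above clusters 2, 3, 4, 5 and 8. The margin was narrow for clusters 4 and 8, whose highest control mice stood at 128.1 and 128.5 CPM. The only control mouse with 20 stromal cell-like cells had no UMI of Zbp1 in them.

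Ddx58 and Dhx58 also ranked high in the monocyte-like cluster. The control mean of Ddx58 was 25.5 ± 11.9 CPM in cluster 1, 24.9 ± 26.9 in cluster 7, 16.2 ± 3.06 in cluster 2, 13.4 ± 1.89 in cluster 4, 9.88 ± 3.82 in cluster 8, 9.81 ± 2.86 in cluster 5 and 8.97 ± 7.95 in cluster 3. In cluster 6 no control cell of 137 held a UMI of Ddx58, where 3 UMIs would have been 16.9 CPM. Neighbours from cluster 1 to cluster 3 overlapped between mice at every step, and at this depth the level of cluster 6 could not be placed below that of cluster 3.

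The control mean of Dhx58 was 55.1 ± 26.6 CPM in cluster 4, 51.2 ± 11.2 in cluster 1, 38.2 ± 3.08 in cluster 5, 34.2 ± 1.49 in cluster 2, 28.1 ± 11 in cluster 3, 25.6 ± 33.0 in cluster 6, 16 ± 14.1 in cluster 7 and 7.47 ± 12.9 in cluster 8. Every pair of neighbours overlapped. In the lymphoid cell-like cluster, control replicates 2 and 4 had no UMI of the gene.

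Ifih1 was ordered differently, with the unnamed cluster 7 first at 43.2 ± 10.8 CPM, then cluster 1 at 38.3 ± 11.3, cluster 5 at 35.1 ± 10.7, cluster 4 at 27.6 ± 2.69, cluster 2 at 18.1 ± 6.25, cluster 6 at 17.0 ± 15.0, cluster 3 at 16.9 ± 15.1 and cluster 8 at 15.0 ± 0.741. A gap between neighbours was found at 1 step, from cluster 4 (25.7 to 29.6 CPM) to cluster 2 (11.2 to 23.4 CPM). Of the macrophage-like clusters, cluster 5 had the higher mean, but its mice, at 22.8 to 41.6 CPM, overlapped those of cluster 2.

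The order of Mavs was mostly within the spread. Its control mean went from 36.9 ± 34.7 CPM in cluster 6 and 23.2 ± 7.08 in cluster 2 through 22.9 ± 3.4 in cluster 1, 16.4 ± 16.4 in cluster 5, 14.8 ± 6.77 in cluster 8, 14.7 ± 5.44 in cluster 3 and 12.5 ± 3.74 in cluster 4 to 7.11 ± 12.3 in cluster 7. Every pair of neighbours overlapped between mice, while clusters 1 (19.1 to 25.5 CPM) and 2 (17.0 to 30.9 CPM) lay wholly above the 2 control mice of cluster 4 (9.85 to 15.1 CPM).

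**Figure D3:**
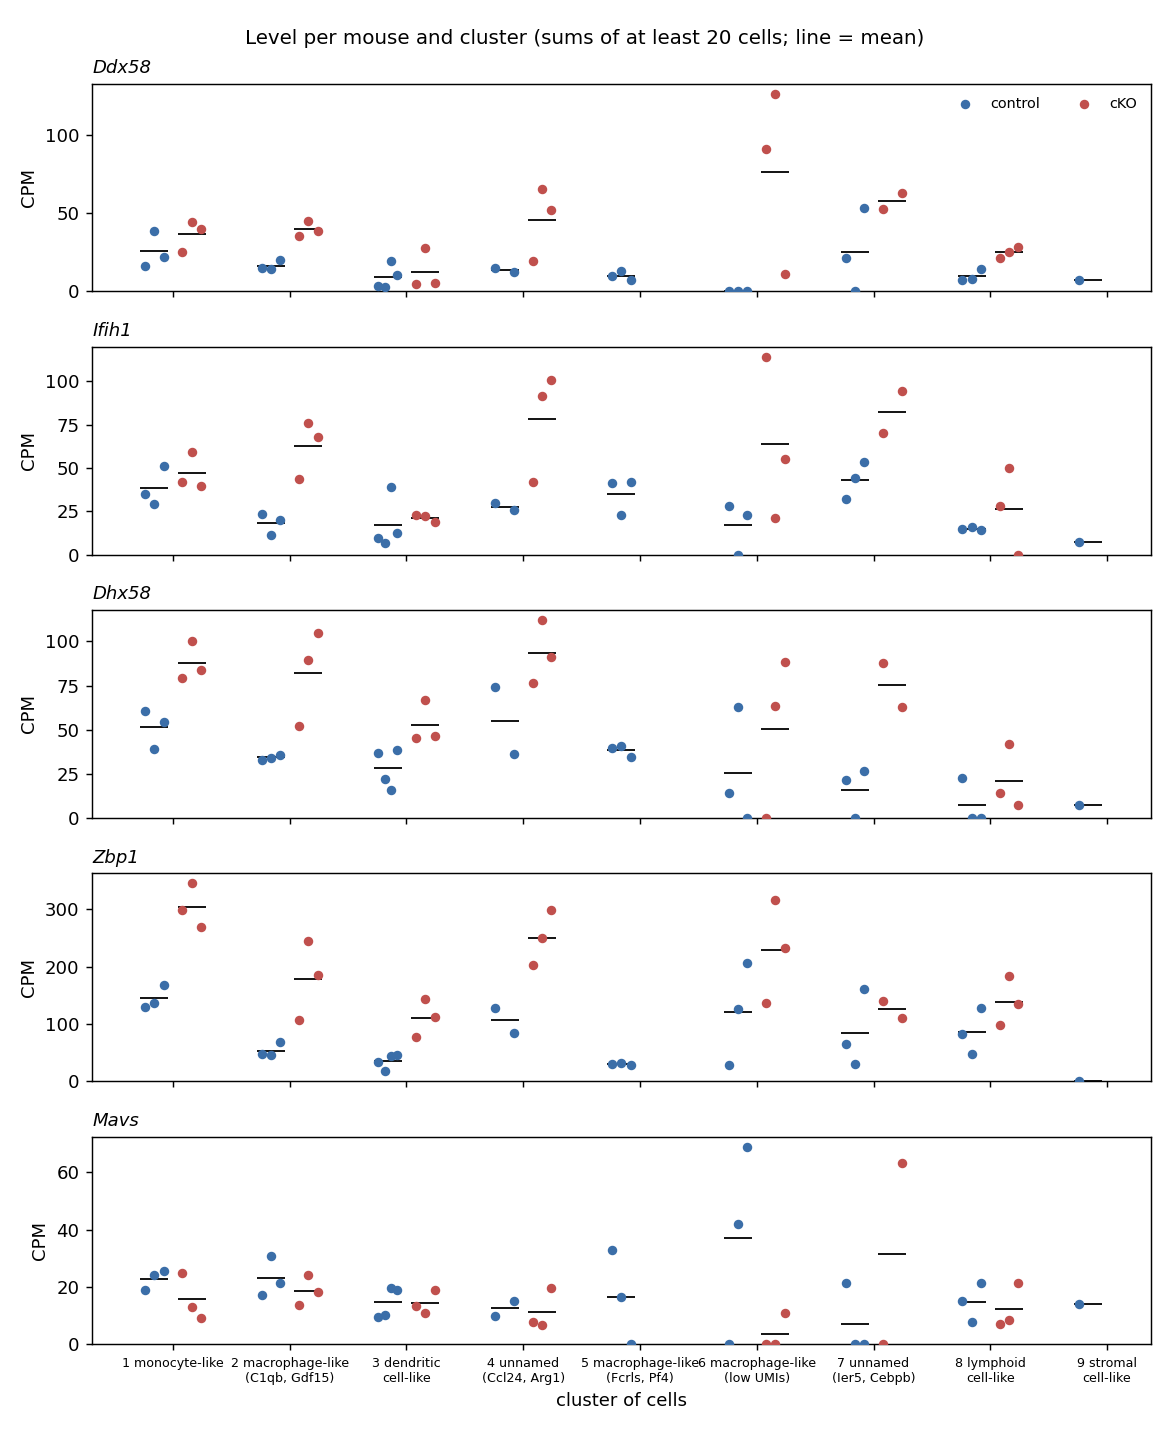
Level of each gene (CPM, linear axis from 0) in each of the 9 clusters, with 1 point per mouse that had at least 20 cells of the cluster and a line at the mean of control or cKO mice. For Zbp1, all 3 cKO mice lie above all control mice in clusters 1 to 4, and no cKO mouse had 20 cells in cluster 5 or cluster 9.

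The comparison within clusters asked whether the sensors also differed among cells of 1 cluster. It used 31 sums of at least 20 cells from clusters 1, 2, 3, 6 and 8, the clusters with at least 3 sums in each condition, and cKO replicate 5 gave no sum. All sums entered the same fit with a mean per cluster and condition and no term for the mouse. Sums of the same mouse were thus treated as independent. Zbp1 was higher in cKO cells of the monocyte-like, the macrophage-like and the dendritic cell-like clusters 1 to 3, and no other gene of the 5 passed in any cluster. How many of all genes had groups without overlap was not counted within clusters, so such statements below are a description.

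In the monocyte-like cluster 1, Zbp1 stood at 130.2, 136 and 167 CPM in control replicates 1, 2 and 4 and at 299.6, 345.5 and 269.6 CPM in cKO replicates 6, 7 and 8. The groups did not overlap, and the log2 fold change was 1.20 (SE 0.294, adjusted p = 0.02 by the quasi-likelihood test of edgeR, adjusted after Benjamini and Hochberg). Control and cKO cells were spread unevenly within this cluster, since 12 clusters split it into 290 cells (138 control, 152 cKO), 250 cells (25 control, 225 cKO) and 143 cells (49 control, 94 cKO). In the cluster as a whole, 1 of 5 genes passed, against 1.29% of the 10505 genes tested in either direction and 1.04% as higher. The others had log2 fold changes of 0.75 for Ddx58, 0.43 for Ifih1, 0.88 for Dhx58 and -0.48 for Mavs with adjusted p of 0.3473 to 0.7943. The call on Zbp1 was lost without control replicate 1 (1.13, adjusted p = 0.1534), control replicate 2 (1.12, 0.1567), cKO replicate 7 (1.08, 0.193) or cKO replicate 8 (1.32, 0.0564), and when 7 or 12 clusters were drawn or all genes clustered, with adjusted p of 0.06361, 0.2007 and 0.1979.

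In the macrophage-like cluster 2, Zbp1 stood at 46.9, 45.0 and 68.2 CPM in control replicates 1, 2 and 4 and at 106, 245 and 186 CPM in cKO replicates 6, 7 and 8. The groups did not overlap, and the spread among cKO mice was wide. The log2 fold change was 1.68 (SE 0.316, adjusted p = 0.001179 by edgeR), and 0.723% of all genes passed in this cluster, 0.571% as higher. The call held when any single mouse was left out, with log2 fold changes of 1.43 to 1.95. The name of this cluster depended on the clustering. With all genes clustered, its best match (419 cells) was led by Ccr2, Ms4a8a and Prtn3 and was named monocyte-like.

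Ifih1 in the same cluster stood at 23.4, 11.2 and 19.7 CPM in control replicates 1, 2 and 4 and at 43.6, 75.8 and 68.1 CPM in cKO replicates 6, 7 and 8. Its log2 fold change was 1.62 (SE 0.418) with an adjusted p of 0.05206 by edgeR, which did not pass. Ddx58 stood at 14.9, 14.1 and 19.7 CPM in the same control mice and at 35.5, 44.8 and 38.6 CPM in the cKO mice, and Dhx58 at 33.0, 33.7 and 35.9 CPM against 51.8, 89.6 and 104.8 CPM. Their log2 fold changes of 1.21 (SE 0.455) and 1.23 (SE 0.367) did not pass, with adjusted p of 0.3821 and 0.1389 by edgeR. Mavs was at -0.29 (SE 0.447). With a graph in place of the Ward tree, the best match of this cluster was an unnamed one of 1327 cells, in which all 4 sensors passed. There 184 of the 9653 genes tested passed. The match was loose, since the cells shared were 0.379 of those in either cluster.

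In the dendritic cell-like cluster 3, Zbp1 stood at 33.5, 18.1, 43.1 and 45.8 CPM in control replicates 1 to 4 and at 76.6, 144 and 111 CPM in cKO replicates 6, 7 and 8. The groups did not overlap, with a log2 fold change of 1.599 (SE 0.329, adjusted p = 0.009457 by edgeR) in a cluster where 0.286% of all genes passed and 0.267% did so as higher. The call was lost without control replicate 2, cKO replicate 7 or cKO replicate 8 (1.36, 1.47 and 1.63, adjusted p of 0.1141, 0.1132 and 0.1357) and when the cluster was fitted alone (1.70, adjusted p = 0.09974). The other genes had log2 fold changes of 0.09 for Mavs to 0.67 for Ifih1, with adjusted p of at least 0.78, and that of Ddx58, at 0.63, was -0.33 without cKO replicate 7.

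In the low-UMI macrophage-like cluster 6 and the lymphoid cell-like cluster 8, none of the 5 genes passed by edgeR or DESeq2, where 0.114% and 0.143% of all genes did by edgeR, and 0.105% and 0.114% as higher. At an unadjusted p under 0.05 there were 2 in cluster 6, where 5.29% of all genes were, and 0 in cluster 8, where 6.94% were. The 2 were Zbp1, with a log2 fold change of 1.23 (SE 0.502, unadjusted p = 0.01844), and Ddx58. For Ddx58 the 137 control cells held no UMI and the 131 cKO cells held 11, or 55.6 CPM. This pooled cKO level was 3.29 times a floor of 3 UMIs over the control group. Counting intervals, pooled over mice, were 27.8 to 99.5 CPM in cKO and up to 20.8 CPM in control cells. The cKO UMIs were uneven, at 0, 4, 6 and 1 in replicates 5 to 8, and the ratio to the floor fell to 1.96 without replicate 7. In cluster 8, the log2 fold change of Zbp1 was 0.72 (SE 0.417) and that of Ddx58 was 1.36 (SE 0.909), on 36 and 5 UMIs in all 92 control cells.

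Whether the effect differed between the 5 tested clusters was tested as an interaction in the same fit, which ignored that clusters shared mice. None of the 5 genes passed by edgeR or DESeq2, with edgeR adjusted p of 0.9584 for Ddx58, 0.9698 for Ifih1, 0.9912 for Dhx58, 0.9698 for Zbp1 and 0.9714 for Mavs, and none was under 0.05 before adjustment. Over all genes, 0.105% passed and 5.26% were under 0.05 before adjustment. The calls on Zbp1 in clusters 1 to 3 and not in clusters 6 and 8 are therefore no shown difference between clusters.

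The unnamed cluster 4 had 2 control mice with enough cells and was fitted only after the data were seen. Zbp1 stood at 128 and 84.8 CPM in control replicates 1 and 4 and at 203, 250.1 and 299 CPM in cKO replicates 6, 7 and 8. The groups did not overlap, and the log2 fold change was 1.39 (SE 0.353, adjusted p = 0.04861 by edgeR), in a cluster where 0.541% of all genes passed. Ddx58 was at 1.98 (SE 0.583) and Ifih1 at 1.65 (SE 0.466), with adjusted p of 0.1397 and 0.1101. The same fit took in the unnamed cluster 7, where the groups overlapped for Zbp1 (0.81, SE 0.645) and none of the 5 genes passed (adjusted p = 0.8773 for each by edgeR, 0.0187% of all genes called).

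The share of cells with Zbp1 was also higher among cKO cells of these clusters, pooled over mice and with no test. After thinning, a UMI of Zbp1 was found in 110 of 460 cKO cells of cluster 1 (23.9%, 95% Wilson interval 20.2% to 28.0%) beside the 13.8% of control cells, and in 15.3% (10.8% to 21.1%) against 6.49% (4.32% to 9.63%) in cluster 2. In cluster 3 the share was 9.20% (4.73% to 17.1%) against 2.90% (1.67% to 5.00%). The macrophage-like cluster 5, with no cKO mouse of 20 cells, could not be tested, and its 47 pooled cKO cells held Zbp1 at 110.0 CPM (counting interval 73.3 to 159) against 31.0 CPM (23.0 to 41.0) in 279 control cells. Of these 28 UMIs, 19 came from replicate 7 and none from replicate 6, and the pooled level was 51.8 CPM without replicate 7. By share of cells, the counting intervals of control and cKO lay apart in clusters 1 and 2 and met in cluster 3 and in cluster 5 (9.52%, 3.77% to 22.1%, against 2.20%, 1.01% to 4.71%), and cells of 1 mouse are not independent.

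**Figure D4:**
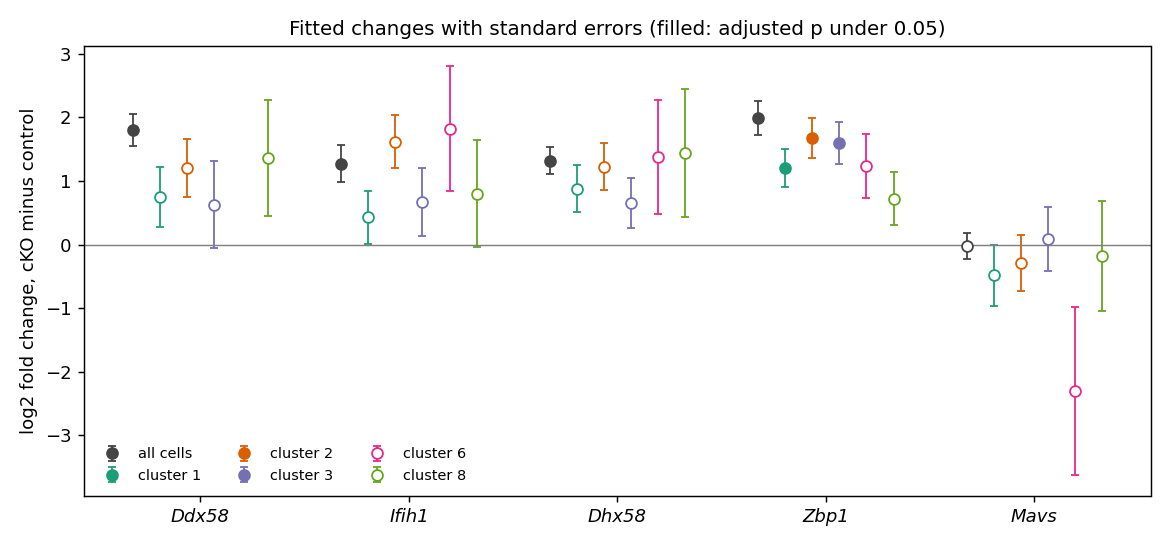
Fitted log2 fold change, cKO minus control, of each gene in all cells and in the 5 tested clusters, with filled points where the adjusted p was under 0.05. Error bars are standard errors derived from the F statistic of the test. Filled points are Ddx58, Ifih1, Dhx58 and Zbp1 in all cells and Zbp1 in clusters 1, 2 and 3, and Ddx58 in cluster 6 is left out because its control cells held no UMI.

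Other genes of nucleic acid sensing were read from lists by function, drawn up with earlier results of these data known. Counts from these lists are therefore a description. Among 12 other RNA sensors, 5 passed as higher in cKO and none as lower in all cells, with a median log2 fold change of 0.80, against a median of -0.03 over all genes tested. Oas3 and Oas1a, synthetases of the second messenger that activates RNase L, and Ddx60, a helicase tied to RIG-I signalling, changed most. Oas3 stood at 1.70 to 7.74 CPM in control and 38.1 to 47.1 CPM in cKO mice (log2 fold change 3.08, SE 0.254, adjusted p = 7.137e-05 by edgeR). Oas1a, at 86.9 to 133 and 326 to 564 CPM, rose by 2.08 (SE 0.217) and Ddx60 by 2.14 (SE 0.353), and Eif2ak2, the kinase PKR, by 1.02 (SE 0.207, adjusted p = 0.01983), without overlap of the groups. Reads of Oas1a may be shared with its close paralogs.

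Of 10 DNA sensors tested, 1 was called higher and none lower, with a median of 0.00. The one was Ifi204, a DNA-binding member of the interferon-inducible p200 family, at 124 to 200.3 CPM in control and 329 to 569.9 CPM in cKO mice (log2 fold change 1.63, SE 0.212, adjusted p = 0.002051 by edgeR). Cgas, the synthase that senses double-stranded DNA, stood at 6.39 to 15.6 CPM and 6.03 to 14.5 CPM (0.11, SE 0.320, adjusted p = 0.8854). Aim2, the DNA sensor of an inflammasome, stood at 20.4 to 27.8 and 14.9 to 24.8 CPM (-0.09, SE 0.201, adjusted p = 0.8495). Zbp1 was thus higher in cKO mice while the values of these 2 DNA sensors overlapped between the groups, though no test compared them.

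Of 15 adaptors, kinases and transcription factors of these and neighbouring pathways, 2 passed as higher and none as lower, with a median of 0.27. Irf7, the interferon-inducible factor that amplifies type I interferon, stood at 62.1 to 160 CPM (159.5 in control replicate 4) and 574 to 909.8 CPM, a log2 fold change of 2.97 (SE 0.292, adjusted p = 0.0002442 by edgeR). Ikbke, an IKK-related kinase that MAVS recruits, rose by 1.21 (SE 0.248, adjusted p = 0.02124). Irf3, its constitutive relative among the factors, was at -0.29 (SE 0.192) and Tmem173, the adaptor STING of the DNA pathway, at 0.16 (SE 0.199), with adjusted p of 0.4385 and 0.6943.

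Regulators of the sensors mostly did not pass. Of 11 positive regulators tested, 1 was higher (median 0.07), namely Trim25, a ubiquitin ligase that activates RIG-I, at 28.9 to 45.8 CPM in control and 54.7 to 64.8 CPM in cKO mice (0.83, SE 0.173, adjusted p = 0.02178 by edgeR). Of 15 negative regulators tested, 1 was higher (median 0.10), namely Samhd1, a hydrolase of nucleotides, by 0.93 (SE 0.223, adjusted p = 0.03759). None of either list was lower. Of the 6 partners of ZBP1 in cell death, 2 were higher and none lower (median 0.53). Mlkl, the effector of necroptosis, rose by 1.93 (SE 0.391, adjusted p = 0.01983) although cKO replicate 5, at 4.02 CPM, lay within the control range of 2.75 to 6.11 CPM, and Cflar, an inhibitor of caspase-8, rose by 0.90 (SE 0.218, adjusted p = 0.03861). Ripk3, the kinase that ZBP1 binds, was at 0.55 (SE 0.282, adjusted p = 0.3022).

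At the output of the pathway, 9 of 13 interferon targets and signalling genes tested were higher and none lower, with a median of 1.31. Isg15, a ubiquitin-like modifier, stood at 64.2 to 173 CPM in control and 456 to 1029 CPM in cKO mice (log2 fold change 2.65, SE 0.329, adjusted p = 0.001335 by edgeR). Ifit3 and Rsad2, antiviral effectors, rose by 2.47 (SE 0.380) and 2.45 (SE 0.369), each with adjusted p = 0.004709. Ifnb1, the gene of interferon-β itself, held 10 UMIs in all kept cells and was not tested, with 0 to 0.612 CPM in control and 0 to 1.75 CPM in cKO mice. These levels rested on 0 to 2 UMIs per control mouse and 0 to 4 per cKO mouse, too few to read a change or its absence.

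Within clusters, 1 of 13 interferon targets passed in cluster 1, 6 in cluster 2 and 1 in each of clusters 3, 6 and 8, all as higher. Isg15 was higher in each of the 5 tested clusters, by 2.01 in cluster 1, 2.69 in cluster 2, 2.22 in cluster 3, 2.71 in cluster 6 and 2.47 in cluster 8, with adjusted p of at most 0.02709 by edgeR. Irf7 passed in clusters 1, 2, 3 and 6, by 2.07 to 3.27, and in cluster 8 it was at 2.94 with an adjusted p of 0.154. Oas1a passed in clusters 1, 2 and 3 (1.41, 1.44 and 1.66). Neither Isg15, Irf7 nor Oas1a differed between clusters in the interaction test (adjusted p of 0.9784, 0.9698 and 0.9923).

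Genes whose level moved most like each member were ranked over 45 sums per mouse and cluster, among 4713 genes with a mean of at least 20 CPM. The 45 sums share mice, wells and conditions, so the coefficients are a description. For Zbp1 they were Ifi206, Ifi213 and Ifi208 (Pearson r of 0.84, 0.83 and 0.80 on log2(CPM + 10)), all of the p200 family, whose near-identical members may share reads. For Ddx58 they were Ifi206 (0.77), Irf9 (0.74), a subunit of the interferon-induced transcription factor complex, and Ly6i (0.73). For Ifih1 they were Rsad2 (0.72), Rnf213 (0.68) and Pilrb2 (0.64), and for Dhx58 Themis2 (0.76) and the paralogs Acaa1a (0.73) and Acaa1b (0.72). The closest to Mavs was Lrwd1 at 0.59, followed by Smc1a (0.59) and Abhd16a (0.56). Among the members, Ddx58 was closest to Zbp1 (0.61) and Ifih1 (0.59), and the coefficients of Mavs with the 4 sensors ran from -0.21 to 0.08.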

How the data were processed

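Lamina propria cells were sorted and sequenced with the 10× Genomics Single Cell 3′ v2 kit. The deposited table holds raw UMI counts per gene and cell, which the authors made with Cell Ranger and STAR 2.5.3a on mm10, per the labels. Cells with log10 UMIs of at least 2.8, log10 genes of at least 2.6, at most 5% mitochondrial UMIs and no hemoglobin UMI were kept, and doublet calls (Scrublet in scanpy 1.11.5) were kept except in an alternative. Cells were clustered with scran 1.30.0 (Ward, 9 clusters) after leaving out 286 genes. These were the list genes, Slc3a2, the YFP reporter and the genes that the study listed as changed between cKO and control cells within its clusters. Sums of counts per mouse, and per cluster of a mouse with at least 20 cells, were tested with edgeR 4.0.16 in R 4.3.3 (TMM, quasi-likelihood), for genes above 1 CPM in at least 3 sums and with a UMI in at least 20 cells, with Benjamini-Hochberg adjustment at 0.05 over all genes tested. Shares were tested with an exact permutation test over 70 arrangements of mice (scipy 1.17.1). The replicates were individual mice, all in wells of 1 cartridge. The fits were tested on simulated data. Alternatives used DESeq2 1.42.0, limma 3.58.1, other filters, clusterings and thinnings, and mice left out in turn. The members and gene lists were chosen with earlier results of these data known. Named were the members, up to 3 called genes of largest change per list, Cgas, Tmem173, Irf3, Irf7, Trim25, Ripk3, Mlkl, Ifnb1, Eif2ak2 and Aim2, and the 3 genes most like each member. Trex1 and Mx2 were not analysed here. The fit with at least 2 sums per condition, the expected shares and the pooled levels without 1 cKO mouse were added after seeing the data.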

Additional observations from a re-analysis of the deposited data

Results flagged for a closer look

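In the share of thinned cells with a UMI of Zbp1, control replicate 4 stood apart from the other 3 control mice at 9.63%. Its gap to the next mouse was 0.844 of the range of the group, above the critical value of Dixon's test for 4 samples. This was 1 of 25 groups of mice checked, and chance sets a mouse apart in about 1 in 20 such groups.

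Barcodes that failed the cell filters, used only in alternative runs with looser or no cell filters, also carried the sensors. Ifih1 stood at a mean of 66.8 CPM in these barcodes of cKO mice, above the 24.9 CPM in those of control mice (exact permutation p = 0.0286, every cKO mouse above every control mouse). These means rested on 1 to 7 UMIs of Ifih1 per control mouse and 2 to 18 per cKO mouse. Zbp1 stood at a mean of 117.0 CPM against 44.8 CPM (exact permutation p = 0.0286, every cKO mouse above every control mouse), on 7 to 26 UMIs per cKO mouse and 2 to 11 per control mouse. How many of all genes separated the mice in this way in these barcodes was not counted. The means of Ddx58 were 34.8 and 16.9 CPM, of Dhx58 74.2 and 37.7 CPM and of Mavs 11.9 and 12.9 CPM, with overlapping groups.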

How the results depend on the processing

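No called result reversed its direction, and the cause of the changes named here was not tested. Values that were not called changed sign when 1 mouse was left out for Mavs in all cells (-0.07 to 0.07), cluster 3 (-0.17 to 0.37) and cluster 8 (-0.86 to 0.22) and for Ddx58 in cluster 3 (-0.33 to 1.16), and Mavs did so in cluster 2 with 7 clusters and in the share of cells at 500 UMIs. The calls on Ddx58, Dhx58 and Zbp1 in all cells held under each alternative run, with log2 fold changes of 1.595 to 1.96, 1.15 to 1.45 and 1.77 to 2.20 when 1 mouse was left out. For Ifih1 in all cells the log2 fold change was 1.27 and no longer called at a false discovery rate of 0.01, 1.03 to 1.49 when 1 mouse was left out, and 2.03 when cells were thinned to 1000 UMIs before summing. The thinned sums came from the same random draw as the shares of cells at 1000 UMIs. In cluster 1, 0 members were called with 7 clusters, 12 clusters or all genes clustered, and 0 to 1 when 1 mouse was left out. In cluster 2 there were 2 with DESeq2, 3 with the likelihood ratio test, 3 with no low-count filter, 3 with each cluster fitted alone, 3 with 7 clusters, 2 with 12 clusters, 4 with the graph, 2 with at least 2 sums per condition and 1 to 3 when 1 mouse was left out. In cluster 3 there were 0 with each cluster fitted alone and 0 to 1 when 1 mouse was left out. The cKO minus control share of cells with a UMI of Ifih1 was 0.75 points at 500 UMIs, 3.04 at 2000 UMIs and 7.13 without thinning, that of Ddx58 was 2.05 to 3.02 and that of Mavs -1.19 to -0.78 when 1 mouse was left out. DESeq2 called 2 positive regulators higher in place of 1. Counts over all genes ranged widely, in all cells from 101 at a false discovery rate of 0.01 to 1038 with the likelihood ratio test beside 510, and without control replicate 2 they fell to 145. In clusters 1, 2 and 3, DESeq2 called 208, 121 and 55 genes beside 136, 76 and 30. Over all genes of cluster 2, the likelihood ratio test called 126 of 10505 and the run with no low-count filter 152 of 15685. The graph called 184 of 9653, the fit with at least 2 sums per condition 81 of 10714, and runs without 1 mouse 44 to 102. With each cluster fitted alone, 7 clusters or 12 clusters, 7437, 10857 and 9985 genes were tested in turn. How many of them passed in cluster 2 is not given, so the member counts of these runs have no share over all genes beside them. No paired analysis was possible because the control mice are numbered 1 to 4 and the cKO mice 5 to 8. With 8 to 120 UMIs per mouse of Mavs and Ddx58, changes within clusters were the least precise.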
